A study of Mus musculus with 2 samples.

Results

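The 10 genes described here are widely used markers of radial glia and of the astrocytes that descend from them: Pax6, Sox2, Hopx, Slc1a3, Fabp7, Vim, Nes, Aqp4, Aldh1l1 and Gfap. They were taken by symbol from the count matrices of both libraries, which makes 10 of 28001 features, and all 10 had counts in the kept cells. Radial glia are the bipolar stem cells that line the ventricles of the developing forebrain. They divide to produce neurons, and around birth part of them turn to making astrocytes and ependymal cells. Pax6 and Sox2 are transcription factors of these progenitors, and Hopx encodes an atypical homeodomain protein found in subsets of radial glia and of neural stem cells. Slc1a3 encodes the glutamate transporter GLAST, Fabp7 the brain fatty acid-binding protein BLBP, Aldh1l1 a folate enzyme of astrocytes and Aqp4 the water channel of astrocyte endfeet. Vim, Nes and Gfap encode the intermediate filament proteins vimentin, nestin and GFAP.

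Messenger RNA of single forebrain cells was counted in 2 libraries, 1 from Gmnc-/- and 1 from wild-type C57BL/6J mice at postnatal day 0. The Gmnc-/- library pooled 4 animals from 2 litters, the wild-type library pooled 4 of their littermates, and the tissue was hippocampus with dorsal and lateral cortex. Gmnc encodes GEMC1, a regulator at the head of the pathway that makes cells multiciliated, and the title of the series places the work in a study of Cajal-Retzius cells. Cells named Cajal-Retzius-like here were 1 of the kept Gmnc-/- and 37 of the kept wild-type cells. No cell can be tied to its animal, and with 1 library per genotype the genotype and the library cannot be told apart. No test was therefore made, each ratio compares these libraries, and the 95% intervals given in parentheses cover counting error only.

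The Gmnc-/- library held 155482657 unique molecular identifiers (UMIs, 1 for each RNA molecule counted) in 27663 barcodes, and the wild-type library 88905819 in 13033. Filtering and doublet removal left 21184 Gmnc-/- and 10478 wild-type cells, with medians of 4484 and 5994.5 UMIs. The libraries shared 85 barcodes, or 0.307% of the Gmnc-/- and 0.652% of the wild-type barcodes. Gmnc itself was at 0.821 CPM (counts-per-million, the UMIs of a gene scaled by all UMIs of the cells summed) in the Gmnc-/- cells and 0.812 CPM in the wild-type cells. Which part of the gene was deleted is not given in the labels, so these counts check nothing about the genotypes.

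Cells were clustered without the 10 genes, so that their own counts did not choose the cells. A further 9 genes of the multiciliated programme, Gmnc among them, were also left out of the clustering. The astroglial clusters were divided into cycling radial glia-like cells (728 Gmnc-/- and 337 wild-type), non-cycling radial glia-like cells (1656 and 782) and astrocyte-like cells (986 and 530). Together these 3 stages made up 15.9% of the Gmnc-/- and 15.7% of the wild-type cells. The 15 astrocyte markers summed to 3305, 8223 and 11606 CPM over the 3 stages in the Gmnc-/- library, and to 3296, 8619 and 11806 CPM in the wild-type library. The 13 radial glia markers summed to 11433, 19371 and 22001 CPM over the 3 stages in the Gmnc-/- library, and to 11418, 19511 and 20448 CPM in the wild-type library. The astrocyte-like cells thus held more of both lists than the cycling cells did, and of the astrocyte markers only Sparcl1 was among their 10 leading genes. Their name rests on the astrocyte score exceeding the radial glia score within the compartment.

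The transcriptional regulators followed 3 different courses over the stages. Pax6, which specifies cortical progenitors, was at 208, 309 and 131 CPM in the cycling, non-cycling and astrocyte-like cells of the Gmnc-/- library, and at 202, 281 and 130.2 CPM in those of the wild-type library. It was highest in the non-cycling cells and lowest in the astrocyte-like cells of both libraries. Sox2, a factor that neural stem cells and astrocytes both use, was at 600.5, 664 and 638 CPM in the Gmnc-/- library and at 479, 558 and 512 CPM in the wild-type library. Its levels differed by less than 1.5-fold between any stages of a library. Hopx was at 58.8, 115 and 65.0 CPM in the Gmnc-/- library and at 146, 295 and 194 CPM in the wild-type library. It was highest in the non-cycling cells of each library, and every wild-type stage lay above every Gmnc-/- stage. Non-cycling over cycling cells gave a Hopx ratio of 1.95 (1.74 to 2.19) in the Gmnc-/- and 2.03 (1.87 to 2.21) in the wild-type library.

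The transporter, lipid-binding, enzyme and channel genes were higher at each later stage. Slc1a3 was at 1389.6, 2233 and 2801 CPM in the cycling, non-cycling and astrocyte-like cells of the Gmnc-/- library, and at 1556, 2291 and 2936 CPM in the wild-type library. Fabp7 was at 3984, 6394 and 8113 CPM in the Gmnc-/- library and at 9425, 13528 and 19583 CPM in the wild-type library. Its lowest wild-type stage lay above its highest Gmnc-/- stage. Aldh1l1 was at 198, 294 and 441 CPM in the Gmnc-/- library and at 136, 214 and 325 CPM in the wild-type library. Aqp4 was at 64.0, 93.4 and 268 CPM in the Gmnc-/- library and at 61.8, 99.98 and 312 CPM in the wild-type library. All 4 genes were lowest in the cycling and highest in the astrocyte-like cells of both libraries, and Aqp4 differed most among the 4, with an astrocyte-like over cycling ratio of 4.18 (3.76 to 4.65) in the Gmnc-/- and 5.05 (4.48 to 5.70) in the wild-type library.

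The filament genes differed among themselves. Vim was at 821, 1275 and 772 CPM in the cycling, non-cycling and astrocyte-like cells of the Gmnc-/- library and at 1032, 1668 and 994 CPM in the wild-type library, a peak in the non-cycling cells of both. Nes was at 242, 269.7 and 215 CPM in the Gmnc-/- library and at 159, 158 and 136 CPM in the wild-type library. Nes had the narrowest span over the stages of the 3 filament genes, and its 3 Gmnc-/- levels lay above its 3 wild-type levels. Gfap was at 26.0, 88.8 and 110.4 CPM in the Gmnc-/- library and at 15.3, 93.9 and 112 CPM in the wild-type library. It was lowest in the cycling cells, where 182 Gmnc-/- and 82 wild-type UMIs carry the value.

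**Figure D1:**
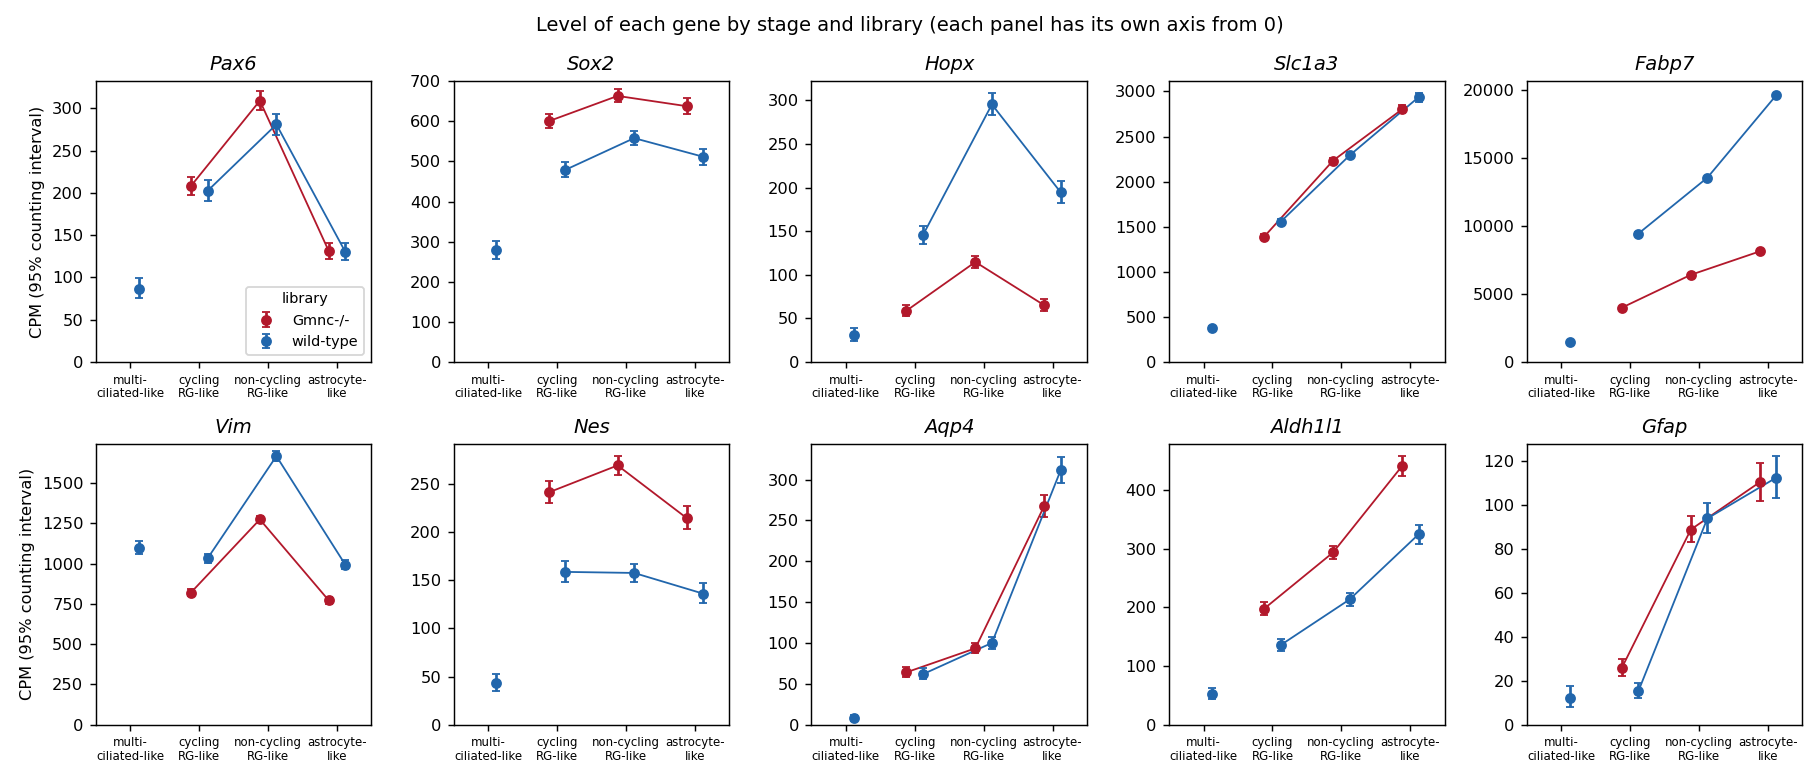
Level of each of the 10 genes in CPM, on a linear axis that starts at 0 and has its own scale in each panel, in multiciliated-like cells (wild-type library, at the left) and in cycling radial glia-like, non-cycling radial glia-like and astrocyte-like cells, with the Gmnc-/- library in red left of the wild-type library in blue; bars are 95% intervals of counting error and lines join the 3 stages. Fabp7 and Hopx stand lower in the Gmnc-/- library at all 3 stages and Nes stands higher. Among the 3 stages Aqp4 and Gfap are lowest in the cycling and highest in the astrocyte-like cells of both libraries.

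Past 2-fold between astrocyte-like and cycling cells (log2 ratio of at least 1 in size after adding 5 CPM to both levels), 5 of the 10 genes were higher in the Gmnc-/- library, where 4.25% of all features were, and 0 were lower, where 6.02% were. The 5 were Gfap at a ratio of 4.25 (3.6 to 5.04), Aqp4, Aldh1l1 at 2.23 (2.09 to 2.38), Fabp7 at 2.04 (2.01 to 2.07) and Slc1a3 at 2.02 (1.97 to 2.07). At a coarser resolution of 0.5, or with the 10 genes kept in the clustering, 3 were higher. In the wild-type library 4 were higher, where 3.53% of all features were, and 0 were lower, where 5.86% were. There Gfap had a ratio of 7.33 (5.80 to 9.36), Aldh1l1 2.39 (2.19 to 2.61) and Fabp7 2.08 (2.06 to 2.10), while Slc1a3 missed the fold at 1.89 (1.84 to 1.94). In that library Fabp7 missed the fold under at least 1 other setting. Between the neighbouring stages fewer genes passed. From cycling to non-cycling cells Gfap alone was past 2-fold higher in each library, where 6.48% (Gmnc-/-) and 6.72% (wild-type) of all features were, with ratios of 3.42 (2.92 to 4.04) and 6.12 (4.86 to 7.79). Hopx lay just inside that fold, and 0 genes were past it lower, where 6.4% (Gmnc-/-) and 6.09% (wild-type) of all features were. Between astrocyte-like and non-cycling cells Aqp4 was past 2-fold higher in each library, where 2.44% (Gmnc-/-) and 2.48% (wild-type) of all features were, with ratios of 2.87 (2.64 to 3.11) and 3.12 (2.86 to 3.41). Pax6 was past 2-fold lower there, where 3.64% (Gmnc-/-) and 4.37% (wild-type) of all features were, with ratios of 0.424 (0.391 to 0.460) and 0.463 (0.424 to 0.507). So the Gfap difference lay between cycling and non-cycling cells, and the Aqp4 and Pax6 differences lay between non-cycling and astrocyte-like cells.

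Other genes of the same cell types were read from lists that also served, in part, to name the classes, so that their direction is no independent evidence. Of 24 other astrocyte genes 19 passed the filter on low values (a mean of 10 CPM over the 2 groups compared) in each library. Past 2-fold, 15 of the 19 were higher in astrocyte-like than in cycling cells of the Gmnc-/- library and 13 of the 19 in the wild-type library. They included Aldoc, a glycolytic enzyme of astrocytes, at 892 CPM in astrocyte-like and 200.3 CPM in cycling cells of the Gmnc-/- library, and at 1043 and 231 CPM in those of the wild-type library. Apoe, the lipid carrier, was at 5055 and 1115 CPM in the Gmnc-/- and at 6615 and 1437 CPM in the wild-type library. Of 20 other radial glia genes 6 were past 2-fold higher in the Gmnc-/- and 5 in the wild-type library. The Notch target Hes5, the matrix gene Tnc and Ttyh1 were past it in both, Hes5 with 1049 CPM in astrocyte-like and 411 CPM in cycling cells of the Gmnc-/- library and with 1650.2 and 627 CPM in the wild-type library. Of the 9 gliogenic regulators Stat3 alone was past it, in the Gmnc-/- library, with 274 CPM in astrocyte-like and 122 CPM in cycling cells. The median log2 ratio was 1.28 (Gmnc-/-) and 1.11 (wild-type) for the other astrocyte genes, 0.61 and 0.62 for the other radial glia genes, 0.57 and 0.66 for the 10 genes, and 0.00 and 0.00 for all features.

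The start regions of 3 genes whose levels carry most of what follows are shown, Fabp7 and Hopx for their difference between libraries and Slc1a3 for its course over the stages. Sequences come from RefSeq on GRCm38.p6 and cover up to 250 bases before the start, cut where the gene begins in the GENCODE annotation. Capitals mark the core TTGGC bound by nuclear factor I proteins and the site TTCNNNGAA of STAT proteins, searched on both strands, with no overlap between the motifs in these windows. TTGGC was found in 41.5% and TTCNNNGAA in 7.02% of 32851 mouse start regions of 250 bases. The Fabp7 window lies at chr10:57784673-57784880 on the plus strand, the Hopx window at chr5:77115124-77115373 and the Slc1a3 window at chr15:8710808-8711057, both on the minus strand. In these windows Fabp7 and Hopx had 1 TTGGC each and Slc1a3 had 1 TTCNNNGAA, which is a match of letters and no evidence of binding. A second Hopx start region, at chr5:77095268-77095517, had 0 of either motif and is not shown. Among the start regions of other members, that of Vim had 2 TTGGC and that of Sox2 had 1. Those of Pax6, Nes, Aldh1l1 and Gfap had 0 of either motif.
Fabp7: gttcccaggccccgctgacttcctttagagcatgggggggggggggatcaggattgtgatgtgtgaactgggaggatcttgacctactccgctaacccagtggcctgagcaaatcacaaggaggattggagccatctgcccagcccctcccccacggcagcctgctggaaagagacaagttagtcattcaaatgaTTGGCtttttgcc
Hopx: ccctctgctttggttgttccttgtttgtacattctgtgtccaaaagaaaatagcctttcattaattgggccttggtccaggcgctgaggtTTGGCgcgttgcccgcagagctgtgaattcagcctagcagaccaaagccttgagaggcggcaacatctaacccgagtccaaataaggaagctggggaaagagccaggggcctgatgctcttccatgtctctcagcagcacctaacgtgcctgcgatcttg
Slc1a3: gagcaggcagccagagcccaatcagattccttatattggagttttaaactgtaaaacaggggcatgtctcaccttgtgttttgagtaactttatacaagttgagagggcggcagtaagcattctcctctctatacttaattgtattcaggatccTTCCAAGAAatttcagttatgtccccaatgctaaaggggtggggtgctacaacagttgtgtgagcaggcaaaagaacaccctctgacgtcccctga

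Between the libraries, Hopx and Fabp7 were lower and Nes was higher in Gmnc-/- cells at each of the 3 stages, and the other 7 genes stayed within 1.5-fold except for Gfap in the cycling cells. Over all kept cells Hopx was at 33.9 CPM in the Gmnc-/- and 91.5 CPM in the wild-type library, a ratio of 0.370 (0.355 to 0.385). Fabp7 was at 1650.3 and 3965 CPM, a ratio of 0.416 (0.414 to 0.419). These were the 2 of 10 genes past 1.5-fold lower over all cells, where 5.79% of all features were, and 0 were past it higher, where 4.51% were. Vim, at 393 CPM in Gmnc-/- and 589.6 CPM in wild-type cells, had a log2 ratio of -0.58 that lay just inside the limit of 0.58. Nes was at 94.9 CPM in Gmnc-/- and 64.6 CPM in wild-type cells, a ratio of 1.47 (1.42 to 1.52) that also missed the limit. Sox2, at 316 and 243 CPM, and Aldh1l1, at 73.5 and 56.7 CPM, had ratios of 1.30 (1.28 to 1.32) and 1.30 (1.25 to 1.35). Pax6, Slc1a3, Aqp4 and Gfap had ratios of 1.10, 0.914, 0.836 and 0.981. With the multiciliated-like cells left out, a setting chosen after seeing the data, the same counts of 2 lower and 0 higher came out, where 5.09% and 4.35% of all features were past the limits.

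Within cycling radial glia-like cells Hopx had a Gmnc-/- over wild-type ratio of 0.404 (0.357 to 0.455) and Fabp7 of 0.423 (0.417 to 0.429), and these were the 2 genes past 1.5-fold lower, where 3.34% of all features were. Nes at 1.52 (1.40 to 1.65) and Gfap at 1.69 (1.30 to 2.22) were the 2 past it higher, where 6.05% were. Within non-cycling cells Hopx at 0.388 (0.361 to 0.417) and Fabp7 at 0.473 (0.468 to 0.477) were the 2 lower genes, where 3.62% of all features were, and Nes at 1.71 (1.60 to 1.83) the 1 higher gene, where 4.57% were. Within astrocyte-like cells Hopx at 0.334 (0.296 to 0.377) and Fabp7 at 0.414 (0.410 to 0.419) were the 2 lower genes, where 4.6% of all features were, and Nes at 1.58 (1.44 to 1.74) the 1 higher gene, where 8.67% were. The higher calls depended on the processing, since 0 genes were past it higher in cycling and non-cycling cells with doublets kept, and 0 in cycling and astrocyte-like cells with median-of-ratios scaling. Aldh1l1, the closest of the rest on the higher side, had ratios of 1.46 (1.33 to 1.60), 1.38 (1.29 to 1.46) and 1.36 (1.28 to 1.45) over the 3 stages. Vim, the closest on the lower side, had ratios of 0.795 (0.766 to 0.825), 0.764 (0.746 to 0.784) and 0.776 (0.745 to 0.809). Slc1a3 and Aqp4, the transporter and channel genes of the same cells, lay between 0.859 and 1.04 at every stage.

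Several other measures are given beside these ratios, and their part in them was not tested. The median log2 ratio of all features was 0.10 over all cells and 0.15, 0.12 and 0.16 in the cycling, non-cycling and astrocyte-like cells. It was higher for genes of longer genomic span: Spearman's rho over features was 0.44, 0.43 and 0.53 in the 3 stages, and in astrocyte-like cells genes in the lowest quartile of span had a median of -0.19 and those in the highest quartile one of 0.37. Fabp7 spans 3570 bases, Sox2 2057, Vim 8900, Nes 9374, Hopx 28134 and Aldh1l1 113777. Of the short genes Fabp7 and Vim were lower and Sox2 and Nes higher in the Gmnc-/- library, Hopx, of middle span, was lower, and Aldh1l1, the longest, was higher. The 6 erythroid markers summed to 319, 559 and 765 CPM over the 3 stages in the Gmnc-/- library and to 495, 1248 and 371 CPM in the wild-type library. Their sum was lower in the Gmnc-/- library at the first 2 stages and higher at the third. By sex-linked transcripts, cells of the female pattern (Xist without any Y-linked UMI) were 9675 of 21184 in the Gmnc-/- and 7088 of 10478 in the wild-type library. The median cell of the 3 stages held 9306.5, 5367 and 5621.5 UMIs in the Gmnc-/- and 15096, 8297 and 8984.5 UMIs in the wild-type library.

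Other genes of these cells were compared in the astrocyte-like cells, where 8.67% of all features were past 1.5-fold higher and 4.6% lower. Of the 20 other radial glia genes, 2 were higher and 4 lower. The higher ones were Ptprz1, a receptor phosphatase of glia, at 10181 CPM in Gmnc-/- and 5759 CPM in wild-type cells, and the stem cell receptor gene Nr2e1 at 99.99 and 63.8 CPM. The lower ones were the Notch targets Hes1, at 185 CPM in Gmnc-/- and 339 CPM in wild-type cells, and Hes5, at 1049 and 1650.2 CPM, with Phgdh, an enzyme of serine synthesis, and Dbi. Of 20 other astrocyte genes tested, Slc1a2, the glutamate transporter GLT-1, and Sparcl1 were higher and 0 were lower. Of the 9 gliogenic regulators Id3, a BMP target, was lower in all 3 stages, with 749 CPM in Gmnc-/- and 1515 CPM in wild-type astrocyte-like cells. Of 20 genes of the 10 genes' families 7 passed the filter on low values, and Plec, whose protein plectin links intermediate filaments, was higher in all 3 stages, with 71.9 CPM in Gmnc-/- and 37.0 CPM in wild-type astrocyte-like cells.

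**Figure D2:**
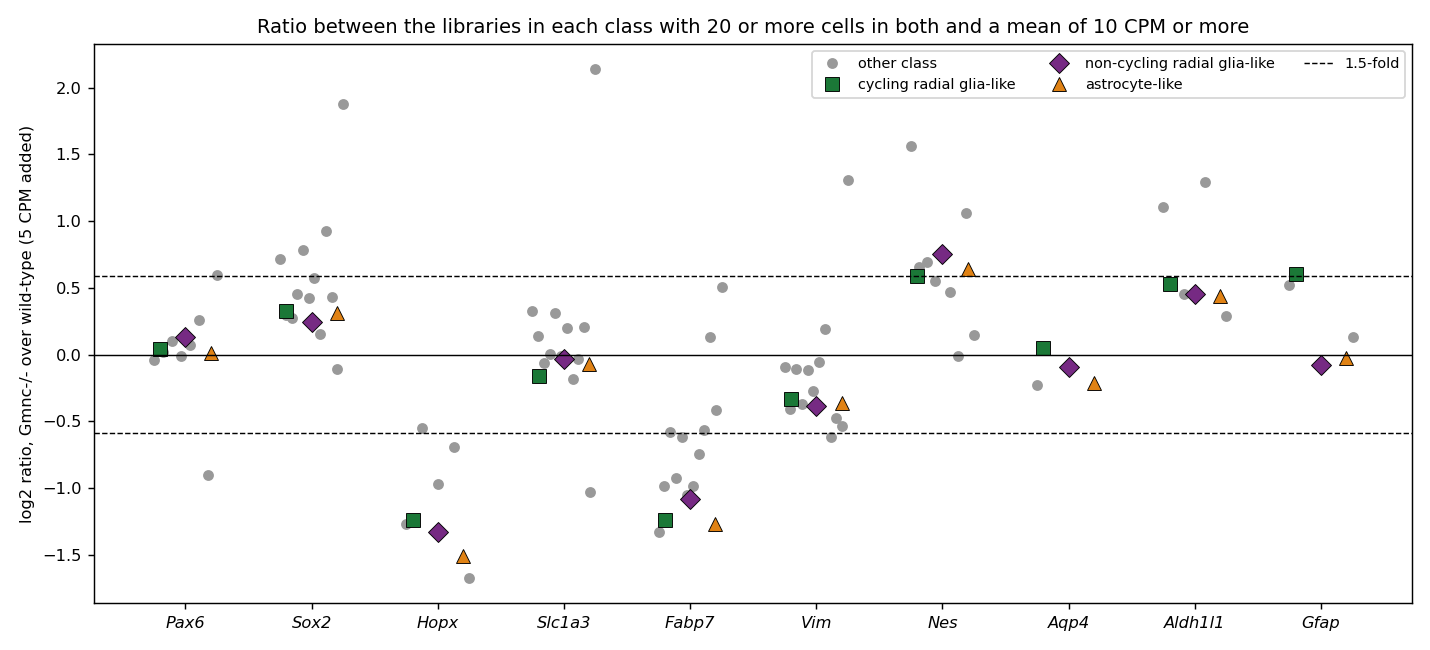
Ratio of Gmnc-/- over wild-type CPM of the 10 genes, as log2 with 5 CPM added, in each class with 20 cells or more in both libraries where the gene passed the filter; coloured symbols are the 3 astroglial stages, grey points the other classes, and dashed lines mark 1.5-fold in either direction. In all 3 stages Hopx and Fabp7 lie below the lower line, Nes lies on or above the upper line, and the grey points of several genes scatter more widely than the 3 stages.

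The same comparison was made in all 15 named classes that both libraries held with at least 20 cells. Fabp7, Sox2, Vim and Slc1a3 passed the filter on low values in all 15. Fabp7 was lower in the Gmnc-/- library in 13, from 0.397 in choroid plexus-like cells upward, with a median of 0.520, and its interval lay above 1 in 1 class, the erythroid-like cells, at 1.44. There, where no Fabp7 is expected, it was at 211 CPM in the Gmnc-/- and 147 CPM in the wild-type library. In intermediate progenitor-, excitatory neuron-, interneuron- and striatal-like cells it was at 153 to 193 CPM in the Gmnc-/- and 235 to 331 CPM in the wild-type library. The part of background in these classes was not tested. Sox2 was higher in 14, with an interval above 1 in 12 and a median of 1.34. The median log2 ratio of all features was also above 0 in all 15 classes, from 0.036 in striatal-like to 0.69 in erythroid-like cells. Vim was lower in 13, with a median of 0.795, and Slc1a3 had a median of 0.990. The other 6 genes passed in part of the classes only, and a class that passed through 1 library had to differ, so no count is drawn for them. Outside the 3 stages Hopx passed through both libraries in choroid plexus-like cells, with a ratio of 0.411 (0.339 to 0.497), and in endothelial-like cells, with 0.569 (0.407 to 0.786). In oligodendrocyte lineage-like cells, at 9.09 CPM in the Gmnc-/- and 22.6 CPM in the wild-type library, in intermediate progenitor-like cells, at 8.49 and 14.8 CPM, and in fibroblast-like cells, at 2.64 CPM (3 UMIs) and 19.3 CPM, it passed through the wild-type library. In erythroid-like cells, below the filter, Hopx was at 7.80 CPM in the Gmnc-/- and 2.52 CPM in the wild-type library. Nes was at 58.0 CPM in Gmnc-/- and 38.1 CPM in wild-type interneuron-like cells, and in mural-like cells its ratio was 0.994 (0.453 to 2.07). Aldh1l1 passed through the Gmnc-/- library alone in endothelial-like cells, at 18.9 CPM against 4.78 CPM in the wild-type library. Past 1.5-fold in choroid plexus-like cells, Hopx and Fabp7 were lower, where 10.5% of all features were, and Sox2, Nes and Aldh1l1 higher, where 23.3% were. In intermediate progenitor-like cells Fabp7 was lower, where 3.46% of all features were, and Nes higher, where 6.05% were. In striatal-like cells Fabp7 was lower, at 193 CPM in the Gmnc-/- and 299 CPM in the wild-type library, where 4.0% of all features were, and Sox2 higher, at 159 and 90.3 CPM, where 4.33% were. Fabp7 was past it lower in interneuron-like cells, where 3.72% of all features were, with 0 genes higher, where 3.18% were. In excitatory neuron-like cells Nes was past it higher, where 2.79% of all features were, with 0 genes lower, where 3.17% were. Nes passed the filter there through the Gmnc-/- library alone, at 18.4 CPM against 9.42 CPM in the wild-type library, so the filter favoured this call. The erythroid-like cells, in which none of the 10 genes is expected, stood apart, since 56.8% of their features were past 1.5-fold higher in the Gmnc-/- library.

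The non-cycling radial glia-like cells held 3 subclusters, and Hopx divided them. The subcluster led by Cpne4 and Pcdh15 had 934 Gmnc-/- and 394 wild-type cells, the one led by Crym and H19 had 504 and 282, and the one led by Dct and Fhod3 had 218 and 106. Hopx was at 16.7 CPM in the Crym-led, 158 CPM in the Dct-led and 158 CPM in the Cpne4-led subcluster of the Gmnc-/- library, and at 20.3, 524 and 401 CPM in those of the wild-type library. The Crym-led over Cpne4-led ratio of Hopx was 0.106 (0.0784 to 0.140) in the Gmnc-/- and 0.0506 (0.0376 to 0.0667) in the wild-type library. Pax6 was at 163 CPM in Crym-led and 393 CPM in Cpne4-led cells of the Gmnc-/- library, and at 136 and 369 CPM in those of the wild-type library. Gfap was at 30.5 CPM in Crym-led and 105 CPM in Cpne4-led cells of the Gmnc-/- library, and at 33.5 and 98.1 CPM in those of the wild-type library. These 3 genes were past 2-fold lower in the Crym-led cells of each library, where 1.33% (Gmnc-/-) and 1.43% (wild-type) of all features were, and 0 of the 10 were past it higher, where 3.21% and 3.51% were. Slc1a3, Sox2, Vim, Nes, Aqp4 and Aldh1l1 had Crym-led over Cpne4-led ratios between 0.80 and 1.15 in both libraries. Crym-led cells thus held the transporter and channel genes, Vim and Nes at about the level of Cpne4-led cells, with lower Hopx, Pax6 and Gfap.

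The Crym-led cells also held markers of the multiciliated programme. The 7 multiciliated markers summed to 334 CPM in Crym-led and 51.9 CPM in Cpne4-led cells of the Gmnc-/- library, and to 434 and 70.7 CPM in those of the wild-type library. Of the 7 markers, 5 had UMIs in each of these groups. The Gmnc-/- over wild-type ratio of Hopx was 0.394 (0.361 to 0.430) in Cpne4-led and 0.302 (0.263 to 0.346) in Dct-led cells, and 0.824 (0.550 to 1.23) in Crym-led cells, where Hopx was low in both libraries. Fabp7 was past 1.5-fold lower in all 3 subclusters and Nes past it higher. So 2 genes were lower and 1 higher in Cpne4-led cells, where 4.49% and 7.42% of all features were, 1 lower and 1 higher in Crym-led cells, where 5.09% and 7.48% were, and 2 lower and 1 higher in Dct-led cells, where 4.71% and 8.7% were. In Dct-led over Cpne4-led cells Vim was past 2-fold higher in the Gmnc-/- library, at 2293 and 1057 CPM, where 2.4% of all features were. In the wild-type library Vim missed that fold, at 2745 and 1431 CPM, where 3.08% of all features passed it. Aqp4 was past 2-fold lower in Dct-led cells of both libraries, where 2.02% (Gmnc-/-) and 2.01% (wild-type) of all features were, with a ratio of 0.469 (0.370 to 0.589) in the Gmnc-/- library. Fabp7 was past it in the wild-type library alone, at 0.421 (0.413 to 0.430), and lay just inside it in the Gmnc-/- library, at 0.506 (0.493 to 0.519).

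**Figure D3:**
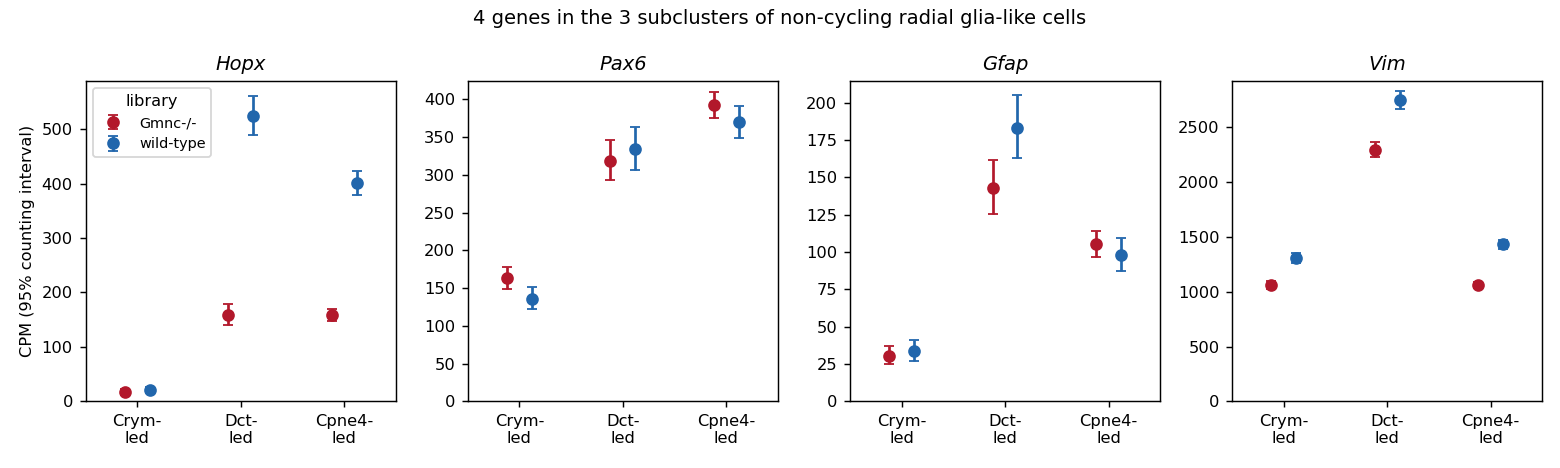
Level of Hopx, Pax6, Gfap and Vim in CPM, on a linear axis from 0 with its own scale in each panel, in the Crym-led, Dct-led and Cpne4-led subclusters of the non-cycling radial glia-like cells, with the Gmnc-/- library in red left of the wild-type library in blue; bars are 95% intervals of counting error. Hopx is at 16.7 CPM (Gmnc-/-) and 20.3 CPM (wild-type) in the Crym-led cells, Pax6 and Gfap are also lowest there, and Vim is highest in the Dct-led cells.

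A finer division of the astroglial compartment into 16 groups showed where 3 of the genes were highest. Hopx ran between 12 and 359 CPM in the Gmnc-/- library and between 11.7 and 1210.4 CPM in the wild-type library. The lowest group of each was led by Crym and H19. The highest was led by Clstn2, Frzb and Sntb1 and had 230 Gmnc-/- and 89 wild-type cells. Aqp4 was highest in the group led by Pla2g3 and Kcnj6, at 389.8 CPM in the Gmnc-/- and 633 CPM in the wild-type library. Gfap was highest in the group led by the choroid plexus genes Ttr and Folr1, at 645 and 467 CPM. The highest level of Hopx, Aqp4 and Gfap thus lay in 3 different groups, the same ones in both libraries.

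Multiciliated-like cells, the lineage that needs Gmnc, were 124 cells of the wild-type library and 0 of the Gmnc-/- library. Of the 10 genes, 8 were past 2-fold lower in them than in wild-type non-cycling radial glia-like cells, where 10.1% of all features were, and 0 were past it higher, where 17.3% were. Aqp4 was at 7.58 CPM in multiciliated-like and 99.98 CPM in non-cycling cells, a ratio of 0.0758 (0.0447 to 0.121) that rests on 18 UMIs. Hopx was at 31.2 and 295 CPM, a ratio of 0.106 (0.0825 to 0.133), and Fabp7 at 1444 and 13528 CPM, a ratio of 0.107 (0.103 to 0.111). Gfap was at 12.2 and 93.9 CPM, a ratio of 0.130 (0.0865 to 0.189), with 29 UMIs in multiciliated-like cells. Slc1a3 had a ratio of 0.163 (0.153 to 0.175), Aldh1l1 of 0.242 (0.20 to 0.291), Nes of 0.272 (0.220 to 0.334) and Pax6 of 0.309 (0.266 to 0.357). Sox2 lay just inside the fold, at 278 CPM in multiciliated-like and 558 CPM in non-cycling cells with a log2 ratio of -0.99, and Vim was at 1099.6 and 1668 CPM, a ratio of 0.659 (0.632 to 0.688). The glial transport, channel and enzyme genes, Gfap and Nes were therefore low, and Sox2 and Vim had the highest ratios of the 10.

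The choice of the radial glia-like group changed part of this. Against the Cpne4-led cells 9 genes were past 2-fold lower, where 11.4% of all features were, and Vim was not, at a ratio of 0.768 (0.732 to 0.806). Against the Crym-led cells 7 were lower, where 10.3% of all features were. In neither comparison was any of the 10 past 2-fold higher, where 19.4% (Cpne4-led) and 16.7% (Crym-led) of all features were. Hopx was then at 31.2 CPM in multiciliated-like and 20.3 CPM in Crym-led cells, a ratio of 1.54 (1.06 to 2.24), and Pax6 at 86.8 and 136 CPM, a ratio of 0.638 (0.534 to 0.760). Hopx was thus low in both groups, whereas Aqp4 and Slc1a3 were low in the multiciliated-like cells and not in the Crym-led cells. The median multiciliated-like cell held 17652.5 UMIs.

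The other gene lists were read in the same comparison, with its shares of 17.3% higher and 10.1% lower over all features. Of 20 other radial glia genes 16 were past 2-fold lower than in non-cycling cells, among them Hes5 at 50.1 CPM in multiciliated-like and 794 CPM in non-cycling cells, and Prom1, whose protein sits on cilia and other membrane protrusions, was past it higher, at 160.1 and 76.2 CPM. Of 19 other astrocyte genes tested 15 were lower and 0 higher. The gliogenic factors Nfia, Nfib and Nfix were within 2-fold, Nfia at 1314 CPM in multiciliated-like and 1711 CPM in non-cycling cells, and 3 of the 9 regulators, Sox9, Id1 and Id3, were lower. Of 9 cell cycle genes 8 passed the filter on low values, of which 6 were past 2-fold higher and 1 lower. Top2a was at 764 CPM in multiciliated-like and 51.7 CPM in non-cycling cells, Cdk1 at 213 and 24.0 CPM, and the replication gene Pcna, the lower one, at 12.6 and 36.9 CPM. Mki67, at 41.3 and 26.6 CPM, was within 2-fold. Aurkb, 1 of the 6 higher, passed the filter through the multiciliated-like cells, at 17.7 and 3.78 CPM. In wild-type cycling radial glia-like cells Top2a was at 1367, Cdk1 at 391 and Mki67 at 537 CPM.

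**Figure D4:**
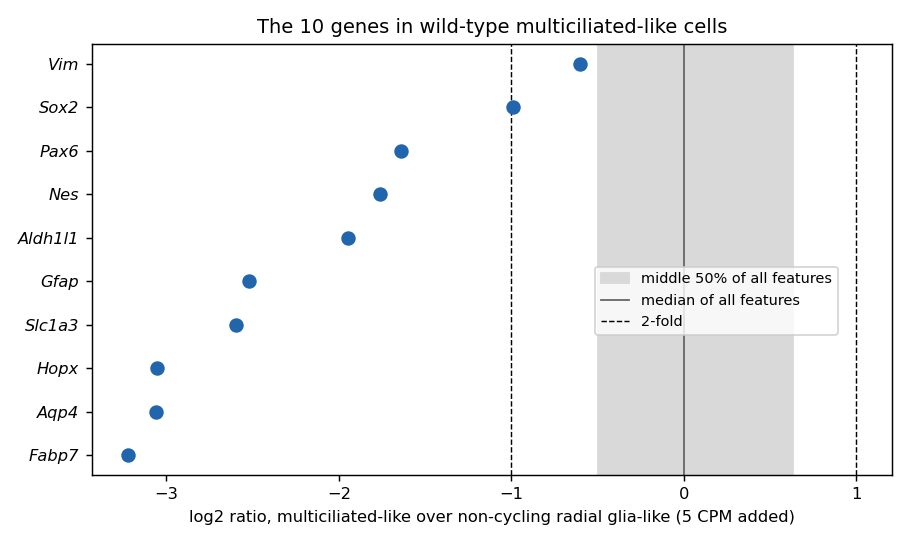
Ratio of multiciliated-like over non-cycling radial glia-like CPM in the wild-type library, as log2 with 5 CPM added, for the 10 genes in order of the ratio; the grey band spans the interquartile range of all features tested and dashed lines mark 2-fold in either direction. All 10 points lie left of 0 and of the grey band, with Vim and Sox2 right of the 2-fold line and the other 8 left of it.

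The share of each gene's UMIs that lay in the 3 stages differed between the genes. It was 86.8% in the Gmnc-/- and 87.7% in the wild-type library for Aldh1l1, 84.6% and 86.5% for Aqp4, 78% and 79.2% for Fabp7 and 69.7% and 71.9% for Slc1a3. It was 42.6% and 48.2% for Sox2 and 39.9% and 42.9% for Pax6, of whose UMIs 24.9% (Gmnc-/-) and 22.6% (wild-type) lay in interneuron-like cells. Hopx had 53.1% and 54.5% in the 3 stages and a further 1226 of 3669 Gmnc-/- and 2164 of 7213 wild-type UMIs in clusters left without a name. The clusters without a name include 2 of the 8 astroglial subclusters, so the share in the 3 stages is not the share in all astroglial cells. The remaining genes, Gfap, Nes and Vim, had between 49.0% and 57.9%. Slc1a3, Fabp7, Aqp4 and Aldh1l1 thus had the 4 highest shares in the astroglial stages in both libraries, and Sox2 and Pax6 the 2 lowest.

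**Figure D5:**
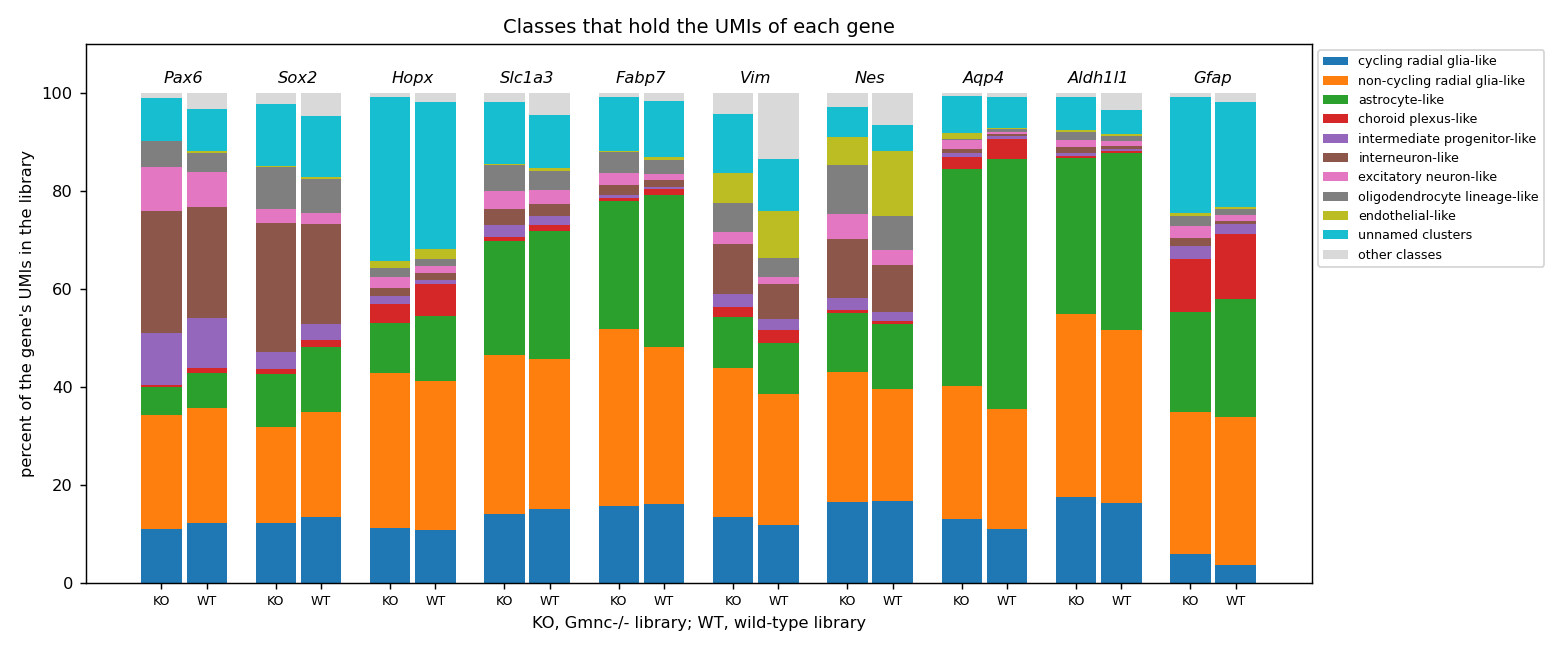
Percent of each gene's UMIs that lie in each class of cells, as stacked bars with the Gmnc-/- library (KO) left of the wild-type library (WT). Most Aldh1l1 and Aqp4 UMIs lie in the 3 astroglial stages, at the bottom of each bar, and Pax6 and Sox2 have the largest interneuron-like parts.

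The order of the classes by level showed where each gene peaked. Slc1a3, Fabp7, Aqp4 and Aldh1l1 were highest in astrocyte-like cells of both libraries, with intervals clear of the next class. Pax6 was highest in non-cycling radial glia-like cells, and its cycling cells did not differ from intermediate progenitor-like cells beyond their intervals, at 208 and 204 CPM in the Gmnc-/- and 202 and 201 CPM in the wild-type library. Gfap was highest in choroid plexus-like cells, 55 Gmnc-/- and 42 wild-type cells led by Ttr and Rspo2, at 741 CPM (663 to 825) in the Gmnc-/- and 513 CPM (457 to 574) in the wild-type library. This class also held Fabp7 at 2399 and 6045 CPM and Slc1a3 at 1437 and 1148 CPM. A group of 65 Gmnc-/- and 54 wild-type cells led by Ttr lay within the astroglial compartment. The class is therefore not shown to be choroid plexus epithelium alone. Among the named classes Hopx and Vim were highest in the choroid plexus-like cells, below the Clstn2-led group for Hopx, Hopx at 321 CPM in the Gmnc-/- and 781 CPM in the wild-type library and Vim at 1870.0 and 1999.7 CPM. Sox2 headed the order in choroid plexus-like cells of the Gmnc-/- library, at 698 CPM and not beyond the interval of the non-cycling cells, and in the non-cycling cells of the wild-type library. Nes in endothelial-like cells, at 249 CPM in the Gmnc-/- and 179 CPM in the wild-type library, overlapped the radial glia-like classes next to it in both. So Gfap and Hopx, in tissue of this age, were not highest in the astrocyte-like cells.

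Detection in single cells followed the levels in part. In the Gmnc-/- library Gfap was found most often in the non-cycling cells, although of the 3 stages its level was highest in the astrocyte-like cells. After thinning each cell to 2000 UMIs, Hopx was found in 9.42%, 16.5% and 9.20% of the cycling, non-cycling and astrocyte-like cells of the Gmnc-/- library and in 18.7%, 28.7% and 21.7% of those of the wild-type library. Without thinning the shares were 25.4%, 32.2% and 19.4% in the Gmnc-/- and 44.2%, 46.3% and 41.3% in the wild-type library. In erythroid-like cells, where no Hopx is expected, the share was 0.917% in the Gmnc-/- and 0.823% in the wild-type library after thinning, at median depths of 3378.5 and 4315.5 UMIs before it. Thinned to the same depth, Nes was found in 32.8%, 37.1% and 30.3% of the cells of the 3 stages in the Gmnc-/- library and in 24.9%, 25.9% and 17.8% in the wild-type library, with 2.06% and 0.412% in erythroid-like cells. Aqp4 was found in 9.0%, 16.3% and 31.5% in the Gmnc-/- and in 8.90%, 18.2% and 38.6% in the wild-type library, and Gfap in 4.02%, 14.3% and 11.4% and in 2.67%, 12.2% and 14.7%. Gfap and Aqp4 were thus found in a minority of the astrocyte-like cells at this depth. Fabp7 was found in 905 of 913 Gmnc-/- and 516 of 516 wild-type astrocyte-like cells, and in 21.3% of the Gmnc-/- and 25.9% of the wild-type erythroid-like cells, the background for this gene. Thinning left out 6, 94 and 73 Gmnc-/- and 0, 20 and 14 wild-type cells of the cycling, non-cycling and astrocyte-like groups, and 164 Gmnc-/- and 77 wild-type erythroid-like cells.

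Of the 10 genes, a thinned multiciliated-like cell of the wild-type library held UMIs of 2.63 on average. Over the 3 stages a thinned cell held UMIs of 4.2, 5.10 and 4.95 of them in the Gmnc-/- and of 4.28, 5.03 and 5.0 in the wild-type library. Gfap was found more often in cells with a Hopx UMI than in those without. In non-cycling cells with a Hopx UMI, Gfap was found in 22.5% (17.5% to 28.1%) of 258 Gmnc-/- cells and 20.1% (14.99% to 26.0%) of 219 wild-type cells. In those without one, it was found in 12.7% (11% to 14.7%) of 1304 and 9.02% (6.75% to 11.8%) of 543 cells. The same order held in astrocyte-like cells, with 26.2% and 9.89% in the Gmnc-/- and 21.4% (14.2% to 30.2%) and 12.9% (9.76% to 16.5%) in the wild-type library, where the intervals overlap. Within the Cpne4-led subcluster the shares were 20.5% with and 15.4% without Hopx in the Gmnc-/- and 18.3% and 10.6% in the wild-type library. In that subcluster the intervals overlap in both libraries.

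Over 32 profiles, each a class in 1 library with at least 20 cells, the gene whose log2 level was most like each of the 10 was looked up among 4081 genes. Fabp7 was most like Hes5 (Pearson's r of 0.977), Aldh1l1 most like Tnc (0.972), Slc1a3 most like Plpp3 (0.960) and Aqp4 most like Aldoc (0.949). Sox2 was most like Rgs20 (0.934), Pax6 most like Sema5b (0.921), Vim most like Ctnna1 (0.912) and Nes most like Myo6 (0.910). Hopx was most like Dbi (0.914) and then Gfap (0.903), and Gfap most like Hopx. Profiles of a class share its markers and those of a library share its depth, so these values describe likeness and carry no test. Among the 10 genes themselves the lowest correlation was that of Vim and Pax6 (0.341).

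In the genome (GRCm38, the mm10 build) the 10 genes lie apart from each other, on chromosomes 2 (Vim and Pax6), 3 (Sox2 and Nes), 5, 6, 10, 11, 15 and 18. Sox2, a gene of 2057 bases on chromosome 3 from 34650405 to 34652461, lies inside Sox2ot on the same strand, so reads of both are hard to tell apart. Hopx, on chromosome 5 from 77086988 to 77115121, and Pax6, on chromosome 2 from 105668900 to 105697364, overlap the antisense genes Hopxos and Pax6os1. Pax6os1 was at 19.96 CPM in Gmnc-/- and 16.9 CPM in wild-type non-cycling radial glia-like cells, where Pax6 was at 309 and 281 CPM. Slc1a3 overlaps an unnamed gene model on the same strand and Aldh1l1 overlaps such models on both strands, so the limit given for Sox2 may apply to them in part. Aqp4 and Gfap overlap unnamed gene models on the other strand. Fabp7, on chromosome 10 from 57784881 to 57788450, Vim and Nes overlap no other annotated gene.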

How the data were processed

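Single cells were captured with 10x 3' chemistry (version 3.1, per the labels' protocols). The deposited values are raw UMI counts per gene and barcode, which the authors made with Cell Ranger 7.1.0 on the mm10 build, per the submitters' processing notes; no cell annotation was used. The matrices held 28001 features, of which 3 had no Ensembl identifier, and their lowest barcode had 500 UMIs.

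Barcodes with at least 1000 UMIs and under 10% mitochondrial UMIs were kept. Doublets were called per library with Scrublet at an expected 0.8% per 1000 barcodes, and 4994 of 26178 Gmnc-/- barcodes (19.1%, expected 22.1%) and 460 of 10938 wild-type barcodes (4.21%, expected 10.4%) were removed. Both libraries were clustered together (scanpy 1.11.5 and leidenalg 0.10.2, with 2000 variable genes, 30 components, 15 neighbours, resolution 1, and 0.5 within the astroglial compartment) without the 10 genes. Left out as well were 9 genes of the multiciliated programme, among them Gmnc, Foxj1 and Trp73. These 9 stayed out when the 10 genes were kept, and Foxj1 and Trp73 still served as naming markers. Clusters were named by marker scores, with minimums of 0.8 for neural lists, 2.5 for other lists and 0.2 for astrocyte minus radial glia score, and at least 3 markers found in 5% of the cells. These minimums were set after seeing the data, 3 of 35 clusters and 2 of 8 astroglial subclusters stayed unnamed, and the rebuilt names may differ from the study's.

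UMIs were summed per library and class to CPM, with exact Poisson intervals and exact conditional intervals for ratios (SciPy 1.17.1). Log2 ratios had 5 CPM added, features needed a mean of 10 CPM, and classes 20 cells. Called meant 1.5-fold between libraries and 2-fold between classes. Shares have exact Clopper-Pearson intervals and come from cells thinned to 2000 UMIs. The calculation was tested on simulated data. The 10 members and all gene lists were chosen with earlier results of these data known. Genes named are the 10, those of the lists, the leading genes of subclusters, and, among the 3 genes most alike to each of the 10, the closest.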

Additional observations from a re-analysis of the deposited data

Results flagged for a closer look

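For 3 of the 10 genes the Gmnc-/- over wild-type ratio lay on opposite sides of 1 in different classes, past 1.5-fold in each. The difference between the classes was not tested, and each class has 1 library per genotype. Pax6 had a ratio of 1.66 (1.10 to 2.55) in erythroid-like cells, at 29.3 CPM in the Gmnc-/- and 17.6 CPM in the wild-type library, and of 0.398 (0.00841 to 3.55) in mural-like cells, at 6.80 CPM (1 UMI) in the Gmnc-/- and 17.1 CPM (5 UMIs) in the wild-type library, so the mural-like ratio is not clear of 1. Slc1a3 had a ratio of 5.64 (3.76 to 8.78) in erythroid-like cells, at 76.8 CPM in the Gmnc-/- and 13.6 CPM in the wild-type library, and of 0.442 (0.270 to 0.700) in macrophage-like cells, at 24.1 CPM in the Gmnc-/- and 54.6 CPM in the wild-type library. Vim had a ratio of 2.78 (2.0 to 3.93) in erythroid-like cells, at 65.9 CPM in the Gmnc-/- and 23.7 CPM in the wild-type library, and of 0.651 (0.603 to 0.703) in fibroblast-like cells, at 820.0 CPM in the Gmnc-/- and 1259 CPM in the wild-type library. Of all features, 56.8% were past 1.5-fold higher and 2.77% past it lower in erythroid-like cells, against 27.9% and 20.1% in mural-like, 9.44% and 7.02% in macrophage-like and 10.4% and 6.13% in fibroblast-like cells. All of these classes lie outside the astroglial stages, and the Pax6 and Slc1a3 levels in them are below the lowest of the 3 stages.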

How the results depend on the processing

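Hopx and Fabp7 were past 1.5-fold lower in the Gmnc-/- library under every setting tried, over all cells and in the 3 stages. The log2 ratio of Hopx ran between -1.44 and -1.21 over all cells (14 settings) and between -1.77 and -1.45 in astrocyte-like cells (13 settings), and that of Fabp7 between -1.39 and -1.18 over all cells. No called value changed sign. The genes past 1.5-fold higher were less stable. In cycling radial glia-like cells they numbered 2 as reported, 1 at resolution 0.5, with the mean over cells, or in cells of the female or of the male expression pattern alone, and 0 at resolution 2, with the 10 genes kept in the clustering, under the looser or the stricter cell filter, with doublets kept or with median-of-ratios scaling. In non-cycling cells the 1 became 0 with doublets kept and in cells of the male pattern. In astrocyte-like cells the 1 became 0 with median-of-ratios scaling and in cells of the female pattern. Over all cells the 0 became 1 with the mean over cells. Vim joined the genes past 1.5-fold lower over all cells under the stricter filter (log2 ratio -0.62), with median-of-ratios scaling (-0.70) and in cells of the male pattern (-0.69). Between astrocyte-like and cycling cells of the Gmnc-/- library the 5 higher genes became 3 at resolution 0.5 and with the 10 genes kept. In the wild-type library the log2 ratio of Fabp7 ran between 0.967 and 1.145 (11 settings), so it missed 2-fold in at least 1 of them. There Gfap, Aqp4 and Aldh1l1 stayed past the fold and Slc1a3 stayed inside it in every setting. The cause of these shifts was not tested, except that median-of-ratios scaling removes the shift of 0.10 to 0.16 in the log2 ratio of all features. Leaving out the multiciliated-like cells was chosen after seeing the data. Of the single gene ratios between libraries, 54 moved beyond their counting intervals and 76 did not over all cells, 22 and 98 in cycling, 33 and 87 in non-cycling and 19 and 101 in astrocyte-like cells.

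No paired analysis was possible because each genotype has 1 library, so the groups share fewer than 2 replicate numbers. For the same reason no replicate could be left out. Depth limits Gfap in cycling cells and Aqp4 and Gfap in multiciliated-like cells, which rest on few UMIs. With doublets kept the non-cycling class grew to 2797 Gmnc-/- and 979 wild-type cells, so this setting changes which cells are compared.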
